A study of Homo sapiens with 6 samples.

Results

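The small leucine-rich proteoglycans are secreted matrix proteins, and 10 of their genes were followed here by gene symbol: LUM (lumican), DCN (decorin), BGN (biglycan), FMOD (fibromodulin), KERA (keratocan), EPYC (epiphycan), OGN (osteoglycin), PRELP, ASPN (asporin) and OMD (osteomodulin). The family was chosen by measured values, since LUM stood among the strongly raised genes of this same comparison, so the members' own differences are given as a description and not as a test. Of the 10 genes, 5 had a line in the deposited tables of 22718 genes (LUM, DCN, BGN, FMOD and PRELP), and 4 of these had enough reads to enter the fit over 16084 genes. KERA, EPYC, OGN, ASPN and OMD had no line. The sources used here do not say by which rule genes entered the tables, so a missing line is not a measured level.

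RNA was sequenced from libraries labelled HT1197, a human bladder carcinoma line from ATCC. In 1 arm the cells had been given panobinostat, an inhibitor of histone deacetylases, at 2 times the line's IC50 (the concentration that gives a half-maximal effect) for 48 hours, and in the other the DMSO vehicle at 1% for the same time. The condition label of the vehicle libraries reads untreated. Each arm has 3 libraries, lettered A to C. Dishes were seeded in triplicate, but the labels do not tie a library to a dish, so the spread between libraries may be technical, and only 1 cell line was used. Library totals ran from 13417898 to 18186087 counts, and 3 counts, taken as the limit that a count of 0 allows, were worth 0.161 to 0.216 CPM, the count scaled to a common library size.

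The measured markers of the labelled cell type were mostly low, and those of another were high. Of 21 urothelial and epithelial markers, 11 had a line, their summed FPKM (counts scaled to gene length and to the library's total) was 11.7 to 15.5 in panobinostat libraries and 11.0 to 15.3 in vehicle libraries, and UPK1B, FOXA1 and TP63 had no count in any vehicle library. Most of that sum was GATA3, at 9.15 FPKM in panobinostat libraries and 10.6 FPKM in vehicle libraries on average, and EPCAM averaged 0.673 FPKM in panobinostat libraries and 1.07 FPKM in vehicle libraries. The keratins KRT5, KRT13, KRT14, KRT18 and KRT20, the uroplakins UPK1A, UPK2 and UPK3A, and CDH1 had no line, which gives no level for them. All 16 adrenergic neuroblast markers had one, 13 of them at 10 FPKM or more in vehicle, and their sum was 1664 to 1760.1 FPKM in panobinostat libraries and 1982 to 2225 FPKM in vehicle libraries. TH, a catecholamine enzyme of that list, was scarce, with 11 counts in the panobinostat arm and 14 in the vehicle arm. DBH and DDC, also catecholamine enzymes of that list, were not scarce in vehicle libraries, at 34.9 and 63.4 FPKM on average. In panobinostat libraries DBH averaged 1.08 FPKM and DDC 57.9 FPKM. The arms are therefore named below by treatment, for libraries labelled HT1197.

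Small leucine-rich proteoglycans have a curved core of leucine-rich repeats that binds collagen fibrils and sets how thick and how regularly spaced the fibrils grow. Decorin and biglycan carry chondroitin or dermatan sulfate chains, while lumican, fibromodulin and keratocan can carry keratan sulfate, as in the cornea, where lumican is needed for transparency. In most organs, the bladder wall included, these proteins are mainly made by fibroblasts and other stromal cells, and decorin and biglycan also bind growth factors and receptors.

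The family answered unevenly. LUM became by far the most abundant member under panobinostat, DCN was also higher but stayed scarce, BGN was about 2-fold lower, FMOD was slightly lower without passing the test, and PRELP was read at a handful of counts in panobinostat libraries alone. Of the 4 members fitted, 2 rose (LUM and DCN), 1 fell (BGN) and 1 did not pass (FMOD) at an adjusted p of 0.05 in edgeR's quasi-likelihood test. Over all 16084 genes in that fit 65.2% passed, with 33.7% rising (5416 genes) and 31.5% falling (5066 genes), so a passing gene was the usual case. Under upper quartile scaling 6570 rose and 3827 fell, since that scaling moved the median of all genes by 0.14 on the log2 scale. Among the 5142 genes whose vehicle mean was under 5 CPM, as it was for all 5 members with a line, 50.9% rose and 8.63% fell. The median log2 change was 1.59 over the 4 members fitted and 0.01 over all genes, and 1 of the 4, DCN, entered the fit only through its counts in the panobinostat arm. The arms did not overlap in CPM for any of the 4, nor for 68.8% of all genes fitted.

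**Figure D1:**
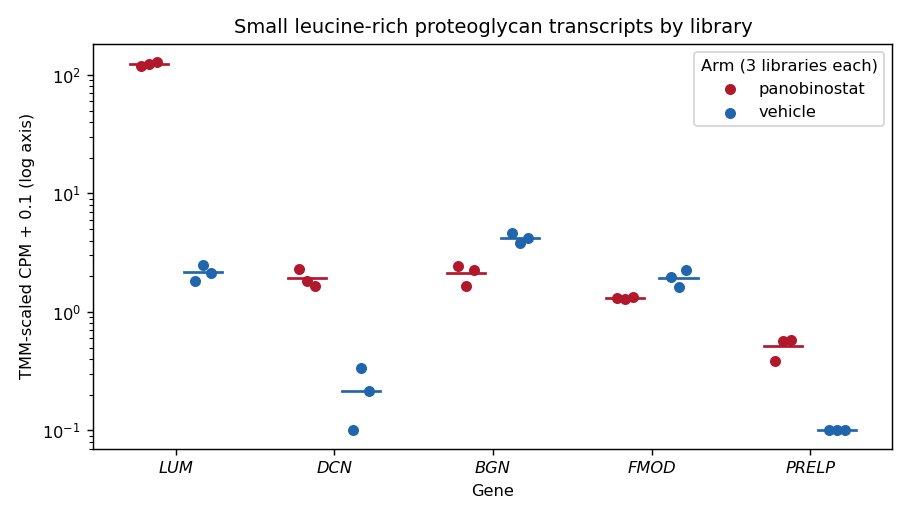
Each point is 1 library, plotted as CPM scaled by TMM factors (trimmed mean of M values) plus 0.1 on a log axis, with panobinostat left of vehicle for each gene and short lines at the arms' means. LUM sits at 119 to 127 CPM in panobinostat libraries and 1.73 to 2.40 CPM in vehicle libraries, BGN and FMOD are lower with panobinostat, and PRELP has no count in vehicle.

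LUM (ENSG00000139329, chr12:91102629-91111831 on GRCh38, minus strand) encodes lumican, which coats collagen fibrils and limits their sideways growth. It was read at 1666, 2078 and 2376 counts in panobinostat libraries A, B and C, against 24, 41 and 35 counts in vehicle libraries A, B and C. The arms lay far apart, and the 3 panobinostat libraries were close to each other once scaled. LUM averaged 123 ± 4.19 CPM in panobinostat libraries and 2.05 ± 0.335 CPM in vehicle libraries (SD, n = 3 each). The fitted log2 change was 5.89 ± 0.11 (SE), or 59.3-fold. The summed counts of the arms, scaled by their library sizes, had a ratio of 59.6, with an exact 95% binomial interval of 48.9 to 73.3 that covers counting error only. Of all genes fitted, LUM had the 135th largest rise. Per gene length it averaged 42.4 ± 1.09 FPKM in panobinostat libraries and 0.654 ± 0.102 FPKM in vehicle libraries. Of all lines in the table, 95.5% had a lower mean FPKM than LUM in the panobinostat arm and 40.7% in the vehicle arm.

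DCN (ENSG00000011465, chr12:91140484-91183123, minus strand) encodes decorin, which binds type I collagen and transforming growth factor beta. It had 31, 29 and 29 counts in panobinostat libraries A, B and C, against 0, 4 and 2 counts in vehicle libraries A, B and C. Every panobinostat library stood above every vehicle library, yet the level was low in both arms. DCN averaged 1.83 ± 0.343 CPM in panobinostat libraries and 0.117 ± 0.117 CPM in vehicle libraries (SD, n = 3 each), a fitted log2 change of 3.79 ± 0.49 (SE). Summed over libraries it had 89 counts with panobinostat against 6 with vehicle, and the scaled ratio was 14.4 (counting interval 6.38 to 40.4). The value leaned on vehicle library B, which held 4 of the 6 vehicle counts: without it the log2 change was 4.66. LUM was better determined, with 6120 counts against 100. The FPKM values of DCN fit a gene length of 12850 bases, near the 12847 bases of all its exons in GENCODE 29 joined, while its longest transcript has 7156 bases, so its level per length (0.148 ± 0.0288 FPKM in panobinostat libraries and 0.00867 ± 0.0087 FPKM in vehicle libraries) depends on that choice.

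BGN (ENSG00000182492, chrX:153494939-153509554, plus strand) encodes biglycan, the close relative of decorin, which also acts on Toll-like receptors when released from the matrix. It had 33, 26 and 40 counts in panobinostat libraries A, B and C, against 63, 64 and 71 counts in vehicle libraries A, B and C. BGN was thus the one member fitted that moved past the threshold downwards, and its arms did not overlap. It averaged 2.01 ± 0.424 CPM in panobinostat libraries and 4.13 ± 0.401 CPM in vehicle libraries (SD, n = 3 each), with a log2 change of -1.04 ± 0.21 (SE), or 2.05-fold lower. The ratio of summed counts was 0.487, with a counting interval of 0.378 to 0.623. In FPKM the averages were 0.851 ± 0.179 in panobinostat libraries and 1.62 ± 0.171 in vehicle libraries.

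FMOD (ENSG00000122176, chr1:203340628-203351758, minus strand) encodes fibromodulin, which shares a collagen binding site with lumican. It had 17, 20 and 23 counts in panobinostat libraries A, B and C, against 26, 26 and 37 counts in vehicle libraries A, B and C. All panobinostat libraries were below all vehicle libraries in CPM, with averages of 1.21 ± 0.0248 CPM in panobinostat libraries and 1.84 ± 0.309 CPM in vehicle libraries (SD, n = 3 each). The log2 change of -0.60 ± 0.26 (SE) did not pass in edgeR's quasi-likelihood test (adjusted p = 0.0502). Without vehicle replicate B, the vehicle library with the lowest CPM, it passed at a log2 change of -0.74 (edgeR adjusted p = 0.0352).

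PRELP (ENSG00000188783, chr1:203475828-203491352, plus strand) encodes a proline- and arginine-rich family member that binds heparan sulfate and collagen. It had 4, 8 and 9 counts in panobinostat libraries A, B and C and 0 counts in each vehicle library. With 3 counts set for the whole vehicle arm, the scaled ratio of panobinostat to vehicle was 6.81. That ratio takes the 21 panobinostat counts as exact, so their counting error is not covered. PRELP was too scarce to enter the fit. At 0.0746 ± 0.0197 FPKM in panobinostat libraries (SD, n = 3) it was the lowest of the 5 members there, and it is listed at 0 FPKM in every vehicle library.

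**Figure D2:**
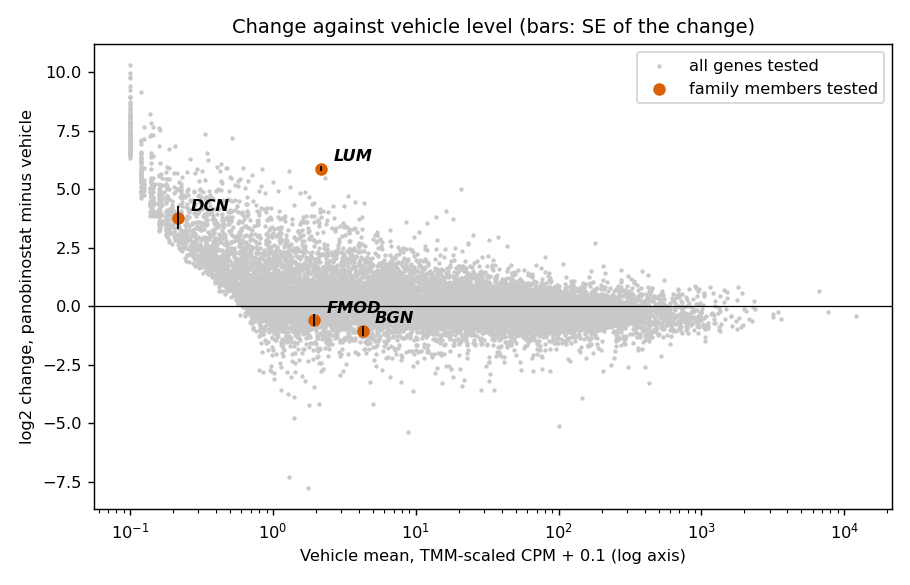
Each grey point is 1 of the 16084 genes fitted, with its vehicle mean (CPM plus 0.1, log axis) across and its log2 change, panobinostat minus vehicle, upwards, and orange points with SE bars mark the 4 members. LUM at 5.89 lies above most genes of its vehicle level, DCN at 3.79 lies among the scarce genes, and BGN at -1.04 and FMOD at -0.60 lie below 0.

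Set side by side per gene length, the order of the members differed between the arms. In panobinostat libraries it ran LUM, BGN, FMOD, DCN and PRELP, and no neighbouring pair in that order overlapped between its lowest and highest FPKM. In vehicle libraries BGN came first at 1.46 to 1.80 FPKM, followed by LUM at 0.559 to 0.762 FPKM and FMOD at 0.439 to 0.618 FPKM. By the same measure LUM and FMOD overlapped there, and DCN (0 to 0.0174 FPKM) and PRELP (listed at 0) came last and overlapped as well. The place of DCN rests on its gene length. In CPM, DCN (1.55 to 2.21) lay above FMOD (1.18 to 1.23) in panobinostat libraries and overlapped BGN (1.54 to 2.36). The 5 members summed to 43.9 ± 1.01 FPKM in panobinostat libraries and 2.82 ± 0.123 FPKM in vehicle libraries (SD, n = 3 each). LUM made up 96.7 ± 0.458% of that sum with panobinostat and 23.4 ± 4.69% with vehicle. BGN, which held the largest share in vehicle libraries, made up 1.94 ± 0.426% with panobinostat and 57.4 ± 3.94% with vehicle, and FMOD 0.864 ± 0.0244% with panobinostat and 19.0 ± 2.56% with vehicle. With LUM left out, the other 4 members summed to 1.45 ± 0.185 FPKM in panobinostat libraries and 2.16 ± 0.223 FPKM in vehicle libraries. The family's higher sum in the panobinostat arm therefore came from LUM.

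**Figure D3:**
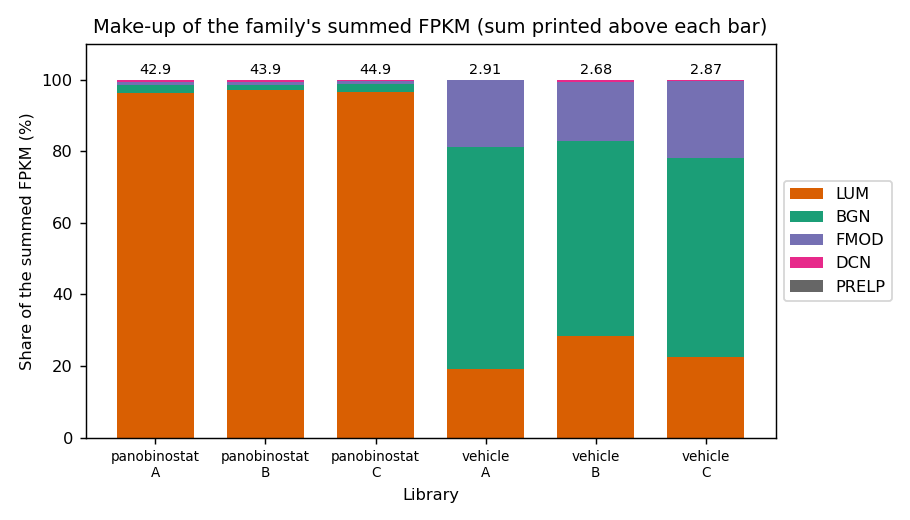
Each bar is 1 library, panobinostat A to C on the left and vehicle A to C on the right, divided by the share of each member in the summed FPKM of the 5 members, and the sum in FPKM is printed above the bar. LUM fills over 96% of each panobinostat bar, while BGN fills the largest part of each vehicle bar.

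Stromal cells are the usual source of these transcripts, so their markers are set beside the change. For all the lists that follow, the shares over all genes fitted were 33.7% rising and 31.5% falling. Among genes with a vehicle mean under 5 CPM, 50.9% rose and 8.63% fell. Of 17 fibroblast markers, 12 had a line and 9 were fitted, of which 4 rose and 4 fell. The summed FPKM of the fibroblast markers was 87.0 to 112 in panobinostat libraries and 85.0 to 88.6 in vehicle libraries. Of that list S100A4 averaged 40.3 FPKM in panobinostat libraries and 19.0 FPKM in vehicle libraries and rose. PDGFRA averaged 28.4 FPKM in panobinostat libraries and 30.5 FPKM in vehicle libraries and fell. None of the 12 was at 0 in every vehicle library, and FAP, POSTN, MFAP5, TCF21 and TWIST2 had no line. Of the smooth muscle and pericyte markers, 4 rose and 2 fell among 6 fitted, with sums of 271 to 304 FPKM in panobinostat libraries and 290 to 305 FPKM in vehicle libraries. These sums rest on a few abundant genes, RGS5 above all (272 FPKM in panobinostat libraries and 290 FPKM in vehicle libraries). Single members moved far more, and in both directions. COL1A1 and COL3A1 of the fibroblast list rose, as did MCAM and CNN1 of the smooth muscle list, by 3.06 ± 0.13 and 2.30 ± 0.18 (SE) on the log2 scale. FBLN1 of the fibroblast list and ACTA2 of the smooth muscle list fell, with log2 changes of -0.98 ± 0.08 and -1.18 ± 0.14 (SE). The Schwann and glial list did move with LUM: 7 of its 9 genes had a line, all 5 that were fitted rose, 4 of them genes that entered the fit only through the panobinostat arm, and the sums were 5.20 to 5.43 FPKM in panobinostat libraries and 0.484 to 0.653 FPKM in vehicle libraries, with SOX10 and MBP having no line and no other member at 0 in every vehicle library. Keratocyte and chondrocyte markers, for the cells of the cornea and cartilage in which the family is abundant, had 2 rising and 1 falling among 3 fitted, with sums of 2.29 to 2.63 FPKM in panobinostat libraries and 0.820 to 1.29 FPKM in vehicle libraries. COMP, 1 of the 2 that rose, entered the fit only through the panobinostat arm. Leukocyte markers had 2 rising and 1 falling of 3, with sums of 0.337 to 0.699 FPKM in panobinostat libraries and 0.570 to 1.09 FPKM in vehicle libraries. The 2 that rose entered the fit only through the panobinostat arm and so had to be higher there. The part of any of these cell types in the LUM result was not tested, and in bulk RNA a different number of cells of a type and a different amount of RNA per cell cannot be told apart.

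The 10 genes lie in 4 places of the genome. KERA, LUM, DCN and EPYC sit within 219 kb on chromosome 12, OGN, OMD and ASPN within 98.5 kb on chromosome 9, FMOD and PRELP within 151 kb on chromosome 1, and BGN alone on chromosome X. LUM and DCN are the closest pair with values, 28.7 kb apart, and both rose. KERA, 44.6 kb from LUM on the other side, and EPYC had no line. Within 500 kb of the chromosome 12 members only 1 other gene had a line, ENSG00000277738, with 6 counts in the panobinostat arm and 2 in the vehicle arm, and none entered the fit. FMOD and PRELP are 124 kb apart, and with panobinostat FMOD had fewer counts than with vehicle and PRELP more.

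Genes around the other members moved both ways. Over all 4 places, 45 neighbours within 500 kb were fitted, and 14 rose, 19 fell and 12 did not pass. For comparison, 33.7% of all genes fitted rose and 31.5% fell. Around BGN 8 of 19 rose (among them DUSP9, BCAP31, L1CAM, ARHGAP4, NAA10, RENBP and TMEM187), 7 fell (PNMA6A, ZNF275, ATP2B3, CCNQ, SLC6A8, IDH3G and HCFC1), and HAUS7, MRFAP1P1, SSR4 and PDZD4 did not pass. ATP2B3, a calcium pump gene 8.12 kb from BGN, averaged 11.2 ± 1.14 CPM in panobinostat libraries and 24.3 ± 2.58 CPM in vehicle libraries (SD, n = 3 each), a log2 change of -1.13 ± 0.12 (SE). That change is close in size to the one of BGN. HAUS7 overlaps the body of BGN on the opposite strand and had a log2 change of 0.05 ± 0.17. Around FMOD and PRELP 5 of 15 rose (ACTG1P25, CYB5R1, PPFIA4, BTG2-DT and ATP2B4), 5 fell (TUBA5P, RABIF, ADIPOR1, ZC3H11A and SNRPE), and KLHL12, TMEM183A, ADORA1, BTG2 and ZBED6 did not pass. Around the chromosome 9 members, which had no line themselves, 7 of 11 fell (ROR2, IARS1, NOL8, CENPP, IPPK, ZNF484 and FGD3), 1 rose (BEND3P2), and SPTLC1, BICD2 and ENSG00000275318 did not pass. CENPP, a centromere protein gene whose body spans these members, averaged 31.1 ± 1.47 CPM in panobinostat libraries and 39.2 ± 0.53 CPM in vehicle libraries.

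**Figure D4:**
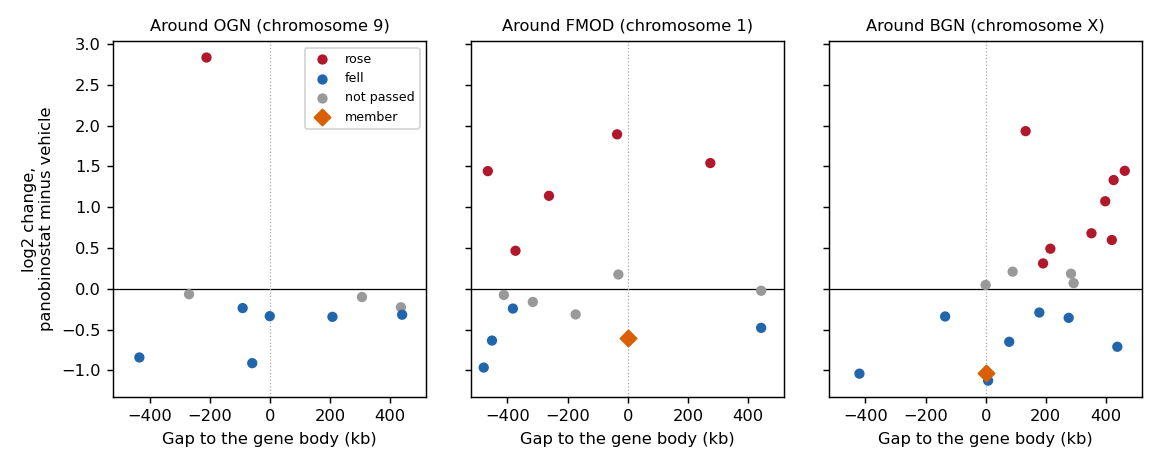
Each point is a fitted gene within 500 kb of OGN, FMOD or BGN, with its gap to that gene's body in kb across (negative for lower positions on the chromosome) and its log2 change, panobinostat minus vehicle, upwards, coloured by call, and diamonds mark FMOD and BGN. Rising and falling genes stand side by side around FMOD and BGN, and around OGN all but BEND3P2 lie below 0.

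Promoter sequences are shown for BGN and PRELP, 2 members with opposite count changes. RefSeq's GRCh38.p14 promoter table held 6 of the 10 members (BGN, FMOD, PRELP, OGN, ASPN and EPYC). Shown are the 209 bases from 250 to 42 bases before the RefSeq start, which for BGN reach up to its gene body. BGN was lower with panobinostat, and PRELP was read with panobinostat only. Capitals mark GC boxes (GGGCGG on either strand), the motif bound by Sp1 family factors; the TATA box was searched as TATAAA on either strand, and the 2 motifs cannot overlap.
BGN, chrX:153494730-153494938, plus strand: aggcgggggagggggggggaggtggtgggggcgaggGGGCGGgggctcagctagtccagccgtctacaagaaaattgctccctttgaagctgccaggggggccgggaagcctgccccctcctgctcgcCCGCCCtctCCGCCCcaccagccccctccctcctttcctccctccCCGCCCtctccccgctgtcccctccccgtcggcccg
PRELP, chr1:203475556-203475764, plus strand: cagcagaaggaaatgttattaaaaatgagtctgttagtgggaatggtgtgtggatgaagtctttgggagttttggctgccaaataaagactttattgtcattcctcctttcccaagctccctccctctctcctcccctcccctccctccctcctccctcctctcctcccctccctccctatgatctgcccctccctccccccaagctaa
The BGN stretch was 74.2% G or C, with 13 CpG dinucleotides and 4 GC boxes. The PRELP stretch was 52.2% G or C, with 0 CpG dinucleotides and no match to either motif. Over the same stretch of 35116 RefSeq promoters, the median was 57.4% G or C with 8 CpG dinucleotides, 36.9% held a GC box and 7.85% a TATA box. FMOD, which had fewer counts with panobinostat as BGN did, was nearer to PRELP in its share of G or C, at 50.7%. Its 8 CpG dinucleotides were nearer to the 13 of BGN than to the 0 of PRELP. The FMOD stretch held 2 GC boxes and 1 TATA box, and is not shown because it overlaps an exon of FMOD. These are letter matches, not measured binding.

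The enzymes that build the sugar chains are needed to turn the core proteins into proteoglycans. For the linker and the chondroitin and dermatan sulfate chains of decorin and biglycan, all 23 listed genes had a line and 20 were fitted: 6 rose, 9 fell and 5 did not pass, with a median log2 change of -0.05 against 0.01 over all genes. Of all genes fitted 65.2% passed, with 33.7% rising and 31.5% falling. The split of the list depended on the scaling, with 7 rising and 5 falling under upper quartile scaling and 6 each way with library size alone. DSEL, a homologue of the epimerase that makes dermatan sulfate from chondroitin sulfate, had 49.1, 41.0 and 40.1 CPM in panobinostat libraries A, B and C, against 4.40, 5.56 and 5.83 CPM in vehicle libraries A, B and C. The arms did not overlap, and the log2 change was 3.03 ± 0.13 (SE). DSE, the better known epimerase of that reaction, fell by 0.20 ± 0.07 on the log2 scale. CSGALNACT1, which starts chondroitin chains, rose by 2.05 ± 0.26, and CHPF, a chondroitin polymerizing factor, by 1.03 ± 0.09. Falls were smaller, and the largest by the rule for named genes was CHST3, a chondroitin sulfotransferase, at -0.82 ± 0.11.

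Keratan sulfate, the chain of lumican and fibromodulin, is made by another set. Of 14 listed genes 12 had a line and 10 were fitted, of which 4 rose, 4 fell and 2 did not pass, with a median log2 change of 0.17. The shares over all genes fitted were 33.7% rising and 31.5% falling. B4GALT2, a galactosyltransferase, had 36.0, 39.2 and 41.8 CPM in panobinostat libraries A, B and C, against 113, 94.8 and 103 CPM in vehicle libraries A, B and C, a log2 change of -1.41 ± 0.09 (SE). B4GALT4, the galactosyltransferase that prefers sulfated keratan sulfate precursors, went the other way at 0.59 ± 0.11. CHST1, which sulfates galactose in keratan sulfate, averaged 3.75 ± 0.39 CPM in panobinostat libraries and 1.09 ± 0.119 CPM in vehicle libraries, a log2 change of 1.76 ± 0.23. ST3GAL3, a sialyltransferase, fell by 0.98 ± 0.16 on the log2 scale. CHST6, the sulfotransferase of the cornea, had 7 counts in the panobinostat arm and 1 in the vehicle arm and was not fitted.

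Collagens and other matrix proteins that the family binds included no falling gene among those fitted. Of 22 listed genes 21 had a line and 17 were fitted, and 13 rose, none fell and 4 did not pass, with a median log2 change of 0.99, where 33.7% of all genes rose. COL14A1 and COMP entered the fit only through the panobinostat arm; without them 11 of 15 rose, with a median of 0.70, against 29.3% of all genes that reached the filter's level in at least 1 library of each arm. The 4 fitted genes that did not pass were COL5A2, FBN1, MATN1 and VWF. FN1, fibronectin, averaged 296 ± 28.3 CPM in panobinostat libraries and 37.8 ± 1.10 CPM in vehicle libraries (SD, n = 3 each), a log2 change of 2.97 ± 0.09 (SE). COL1A1, a chain of the type I collagen bound by lumican and decorin, had 36.3, 35.1 and 31.3 CPM in panobinostat libraries A, B and C, against 3.68, 1.70 and 2.37 CPM in vehicle libraries A, B and C. Its log2 change was 3.76 ± 0.17. COL1A2, the partner chain, had 10 counts in the panobinostat arm and 7 in the vehicle arm and was not fitted. COL6A3, a chain of type VI collagen, which biglycan and decorin bind, rose by 3.35 ± 0.13. COL14A1, a fibril-associated collagen, had 229 counts in the panobinostat arm and 2 in the vehicle arm, 111 times as many after scaling, though with so few vehicle counts the interval for counting error runs over 30.5 to 926. COL1A1 and COL3A1 also stand in the fibroblast list, where they are 2 of the 4 that rose.

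**Figure D5:**
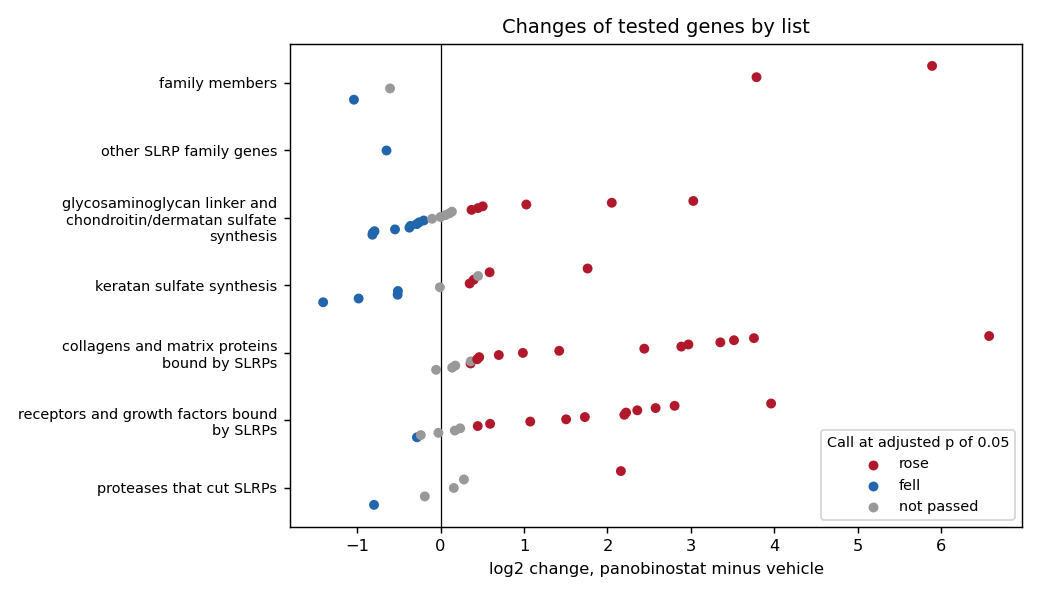
Each point is a fitted gene of a list (SLRP, small leucine-rich proteoglycan), with its log2 change, panobinostat minus vehicle, across, and red, blue and grey mark genes that rose, fell or did not pass in edgeR's test at an adjusted p of 0.05. The sugar chain lists spread to both sides of 0, while 13 of 17 matrix genes and 11 of 16 receptor and growth factor genes rose.

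Receptors and growth factors that the family binds or modulates had more rising than falling genes. Of 30 listed genes 23 had a line and 16 were fitted, of which 11 rose, 1 fell and 4 did not pass, with a median log2 change of 1.29. Of all genes fitted 33.7% rose. KDR, ITGA2, PDGFA and PDGFB entered the fit only through their counts in the panobinostat arm and so had to be higher there; of the other 12 genes 7 rose and 1 fell, with a median of 0.52, and by the same rule 29.3% of all genes rose. ITGA2, the alpha chain of a collagen-binding integrin with which lumican interacts, averaged 3.97 ± 0.677 CPM in panobinostat libraries and 0.232 ± 0.209 CPM in vehicle libraries (SD, n = 3 each), a log2 change of 3.96 ± 0.41 (SE). P2RX7, a receptor through which biglycan signals in macrophages, averaged 23.5 ± 1.39 CPM in panobinostat libraries and 3.34 ± 0.41 CPM in vehicle libraries and rose. TGFB1, a ligand of decorin, averaged 11.8 ± 0.438 CPM in panobinostat libraries and 2.55 ± 0.751 CPM in vehicle libraries, a log2 change of 2.22 ± 0.18. BMP4, which biglycan binds, rose by 2.20 ± 0.32. LRP6, a Wnt co-receptor, was the one that fell, by 0.28 ± 0.07 on the log2 scale, and under upper quartile scaling or library size alone 12 of the list rose and none fell. Among genes too scarce to fit, BMP6 had 30 counts in the panobinostat arm and 0 in the vehicle arm, TLR4 had 11 and 0, and CD44 had 0 and 13. With limma on log2(FPKM + 1) and a mean of at least 1 FPKM, 10 of the list were fitted, 6 rose and none fell.

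Of 14 listed proteases that cut these proteins, 8 had a line and 5 were fitted, of which 2 passed; over all genes 65.2% passed, and 5 genes are too few to set against that share. TLL1, a tolloid-like protease, rose, with 5.57, 4.97 and 6.37 CPM in panobinostat libraries A, B and C, against 0.793, 1.64 and 1.27 CPM in vehicle libraries A, B and C, a log2 change of 2.16 ± 0.24 (SE). BMP1, the procollagen C-proteinase that also removes the biglycan propeptide, fell, at 7.41 ± 0.32 CPM in panobinostat libraries and 12.9 ± 0.718 CPM in vehicle libraries, a log2 change of -0.80 ± 0.12. MMP2, ADAMTS4 and ADAMTS5 did not pass. The 2 calls became 4 without vehicle replicate B and 4 without panobinostat replicate C.

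Of 8 further genes of the family, 4 had a line and only TSKU, which encodes the secreted BMP inhibitor tsukushi, was fitted. It had 11.8, 11.5 and 12.4 CPM in panobinostat libraries A, B and C, against 20.6, 16.7 and 18.8 CPM in vehicle libraries A, B and C. TSKU fell by 0.65 ± 0.11 (SE) on the log2 scale. PODN (podocan) had 13 counts in the panobinostat arm and 39 in the vehicle arm, its homologue PODNL1 had 16 and 4, and CHADL had 4 and 14, all too few to fit. Leaving out vehicle replicate C, or any 1 of panobinostat replicates A, B and C, let a second gene into the fit, and 2 then fell. ECM2, OPTC, CHAD and NYX had no line.

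The genes whose profile over the 6 libraries was most like that of LUM, by the root mean square difference of centred log2(CPM + 1), were FSTL5 (0.13), TMPRSS15 (0.17), IL15 (0.22), LINC00624 (0.23) and DHRS2 (0.24). DHRS2, a dehydrogenase gene known to respond to histone deacetylase inhibitors, averaged 671 ± 68.0 CPM in panobinostat libraries and 20.6 ± 4.23 CPM in vehicle libraries (SD, n = 3 each). IL15, a cytokine gene, averaged 65.9 ± 3.20 CPM in panobinostat libraries and 1.19 ± 0.39 CPM in vehicle libraries. None of the 5 lies on chromosome 12. The choice of measure set this list: Pearson's correlation named 0 of the same 5 genes, and a pseudocount of 0.1 named 1, IL15.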

How the data were processed

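The authors deposited 1 table of whole-number counts per gene and 1 of FPKM, for the 6 libraries described below. Per the submitters' processing notes, reads were aligned with Novoalign 2.8 to hg38 and counted with Subread featureCounts 1.5.1; per the file headers, featureCounts was 1.5.0-p3 with strand option 2 and an Ensembl release 84 annotation. In the deposited FPKM table each of the 64991 values resting on at least 100 counts was within 1% of its count over gene length and library total. Symbols matched 22318 of 22718 lines, and coordinates are from GENCODE 29 (GRCh38).

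The members and gene lists were chosen with earlier results of these data known. The count table was fitted whole with edgeR 4.0.16 (R 4.3.3): TMM scaling, filterByExpr (minimum count 10, total 15), quasi-likelihood test, panobinostat minus vehicle, Benjamini-Hochberg adjustment, threshold 0.05. CPM are TMM-scaled. The steps were tested on simulated counts in which few genes changed, in random directions. In these data 65.2% of genes passed, so that simulation cannot check the scaling under so broad a change. Intervals cover counting error only, and a limit set for 0 counts covers that of the 0 alone. Named genes were all members with a line and, per list, up to 4 past the threshold with the largest log2 change, a mean of at least 1 CPM and arms that do not overlap; in addition the fitted neighbours within 500 kb (1 is not reported here) and the 5 profiles nearest LUM. GATA3, EPCAM, TH, RGS5, MCAM, CNN1, KDR, PDGFA, PDGFB, COMP, DSE, the matrix genes that did not pass and the genes given by counts were named after their values were seen, as were LRP6, MMP2, ADAMTS4 and ADAMTS5. DDC and PDGFRA were also named after their values were seen. Alternatives used limma 3.58.1 and DESeq2 1.42.0; tables were joined in Python 3.11.15.

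Library rank correlations (Spearman) were 0.993 to 0.997 within an arm and 0.941 to 0.950 between arms, and no pair of libraries agreed within sampling noise. In each arm library A was the least like the others. Vehicle library A correlated at 0.994 with B and with C, and B with C at 0.997. Panobinostat library A correlated at 0.994 with B and 0.993 with C, and B with C at 0.997.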

Additional observations from a re-analysis of the deposited data

How the results depend on the processing

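Over 17 alternatives each, the count of genes passing ran from 7808 to 11788 (10482 as reported) and that of members from 2 to 4 (3 as reported). LUM, BGN and, in the 15 alternatives that fitted it, DCN kept their direction and passed in each, with log2 changes of 4.72 to 6.03, -1.15 to -0.50 and 0.19 to 4.66; the low values came from log2(FPKM + 1), and the highest for DCN from leaving out vehicle replicate B. FMOD ran from -0.74 to -0.15 (adjusted p 0.0352 to 0.184 over edgeR, DESeq2 and limma) and passed only without vehicle replicate B. PRELP, fitted under 3 alternatives, was higher with panobinostat in each. Other family genes passing went from 1 to 3 with no filter, to 2 with DESeq2, and to 1 to 2 with single libraries left out. Proteases went from 2 to 5 with no filter, to 4 with DESeq2 or with limma and no filter, to 1 with limma at a mean of 1 FPKM under either pseudocount, and to 2 to 4 with single libraries left out. Receptors and growth factors went from 12 to 6 with limma at a mean of 1 FPKM under either pseudocount. The cause of these changes was not tested. Library size alone moved the median of all genes by 0.11 and upper quartile scaling by 0.14 on the log2 scale.

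The letters A to C were not taken to pair libraries: deviations of same-letter libraries correlated at 0.08, -0.02 and 0.10. With the letter as a replicate block, 10541 genes passed, as did 3 members and 3 proteases, and panobinostat library B did not correlate best with its own letter. Depth limits DCN, FMOD and PRELP, each under 100 counts per arm.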
